A study of Mus musculus with 9 samples.

Results

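The 8 genes described here encode acyl-CoA thioesterases, and they were taken as the rows of the authors' annotated table whose gene symbol was Acot1, Acot2, Acot4, Acot7, Acot8, Acot9, Acot11 or Acot13. Each symbol matched 1 probe set, so the group holds 8 of the 19760 genes with 1 symbol. Expression was measured on an Affymetrix mouse genome array in whole hearts of male mice on the FVB background aged 15 weeks, and each of the 3 groups held 3 mice with an array apiece. The 8 genes were selected on their levels in these same groups, which were known when the family was proposed. Wild-type hearts (WT) were set beside hearts expressing a kinase-deficient phosphofructokinase 2 (GlycoLo) and hearts expressing a phosphatase-deficient one (GlycoHi). All 3 groups carry the word naïve in their labels, and the promoter that drives each transgene is not given in the sources used here. Pfkfb1, the liver gene for phosphofructokinase 2, stood at 7.89 ± 0.13 in WT, 14.36 ± 0.02 in GlycoLo and 14.42 ± 0.01 in GlycoHi (log2 level, SD, n = 3), so both transgenic groups differed from WT at this gene as their labels say. The 9 arrays had medians between 4.76 and 4.80 and correlated at 0.994 to 0.997 with one another across probe sets. Of 8 cardiomyocyte markers all were measured, and the log2 of their summed level lay between 16.27 and 16.32 on the 9 arrays. The brightest markers weigh most in this sum, and single markers differed. Against WT, 6 of the 8 had a lower mean in GlycoLo and 7 in GlycoHi (median difference -0.03 and -0.04). Myh6 stood at -0.70 in GlycoHi.

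Acyl-CoA thioesterases split a fatty acyl-CoA into free fatty acid and coenzyme A. They work against the acyl-CoA synthetases, which activate fatty acids, and so help to set how much acyl-CoA and free coenzyme A a compartment holds. The type I enzymes (Acot1 to Acot6 in the mouse) share an alpha/beta-hydrolase fold and differ mainly in where they reside, in the cytosol, the mitochondria or the peroxisomes. The type II enzymes (among them Acot7, Acot8, Acot9, Acot11 and Acot13) are built from the hotdog fold. Acot1 is a classical target of PPAR alpha, the fatty acid-sensing receptor, in rodent liver and heart.

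Acot1, Acot2 and Acot7 were the members called different in at least 1 comparison, and the bases upstream of their start sites are shown for that reason. By the RefSeq annotation of GRCm38.p6, Acot2, Acot1, Acot4, Acot3, Acot5 and Acot6 follow one another on chromosome 12 with 0 other protein-coding genes between them, and 3 of these 6 are among the 8 genes. Acot7 lies on chromosome 4. RefSeq promoter windows were found for 7 of the 8 genes, and Acot13 had none in the table. The windows below are the 250 bases before the start site, on the plus strand of GRCm38.p6, at chr12:84009252-84009501 for Acot1, chr12:83987611-83987860 for Acot2 and chr4:152185358-152185607 for Acot7. Capitals mark the CCAAT box (letters CCAAT) and the GC box (letters GGGCGG), searched on both strands, and the pair of GC boxes of Acot7 overlap.
Acot1: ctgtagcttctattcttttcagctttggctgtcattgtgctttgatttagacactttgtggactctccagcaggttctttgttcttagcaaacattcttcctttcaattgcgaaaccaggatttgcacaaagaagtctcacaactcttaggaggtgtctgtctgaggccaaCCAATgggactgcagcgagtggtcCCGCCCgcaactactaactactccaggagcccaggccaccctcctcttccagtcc
Acot2: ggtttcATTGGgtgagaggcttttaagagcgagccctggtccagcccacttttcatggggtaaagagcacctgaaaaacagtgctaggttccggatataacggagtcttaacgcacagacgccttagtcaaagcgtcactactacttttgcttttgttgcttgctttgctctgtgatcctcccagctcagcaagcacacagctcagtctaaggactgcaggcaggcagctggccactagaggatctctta
Acot7: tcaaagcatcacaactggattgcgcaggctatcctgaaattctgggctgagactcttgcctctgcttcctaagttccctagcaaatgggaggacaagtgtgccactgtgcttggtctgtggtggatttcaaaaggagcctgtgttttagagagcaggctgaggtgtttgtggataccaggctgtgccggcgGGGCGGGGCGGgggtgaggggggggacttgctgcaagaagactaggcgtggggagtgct
A CCAAT box was present in 33.8% and a GC box in 32.7% of all 32851 RefSeq windows of this length. The PPAR response element (a direct repeat of AGGTCA with 1 base between) was present in 0.0335% of windows and the ERR element (TCAAGGTCA) in 0.387%, and neither was found in the windows of the 7 genes. Exact letters this rare would be absent from nearly any 7 windows, so their absence says nothing about PPAR or ERR sites in these genes. A lone AGGTCA, the unit of the direct repeat, present in 14.0% of windows, was found only in that of Acot4 among the 7. The E-box CACGTG, present in 6.02%, was found in those of Acot4 and Acot11.

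Acot1, the cytosolic type I enzyme, was lowest in GlycoLo hearts. Its log2 level was 7.02, 6.75 and 6.76 in the WT mice, 5.69, 5.68 and 5.74 in the GlycoLo mice and 6.46, 6.62 and 6.22 in the GlycoHi mice. The 3 groups did not overlap, with every GlycoHi heart between the WT and the GlycoLo hearts. The difference from WT was -1.14 ± 0.11 in GlycoLo (log2 scale, SE of the fit), a 2.20-fold lower level, and -0.41 ± 0.11 in GlycoHi, a 1.33-fold lower level. Between the transgenic lines the gene was 0.73 ± 0.11 higher in GlycoHi. Adding 50 units to the linear values before taking log2 shrank the difference in GlycoLo to -0.69 and that between the lines to 0.42. In RNA from whole tissue, fewer cells of a type that expresses a gene and less of its RNA per cell cannot be told apart, here and in all that follows.

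Acot2 encodes the mitochondrial matrix enzyme and lies beside Acot1. Its log2 level was 9.60, 9.64 and 9.93 in WT, 8.75, 9.14 and 8.78 in GlycoLo and 9.84, 9.92 and 10.34 in GlycoHi. All GlycoLo hearts were below all others, while the WT and GlycoHi groups overlapped. The difference from WT was -0.83 ± 0.15 in GlycoLo (1.78-fold lower) and 0.31 ± 0.15 in GlycoHi (1.24-fold higher), which became 0.16 without GlycoHi replicate 3, the heart with the highest level. GlycoHi exceeded GlycoLo by 1.14 ± 0.15, a 2.21-fold difference and the largest of the 8 genes between the lines. The order of the groups thus differed between the neighbours: for Acot1 WT was highest and GlycoHi in between, and for Acot2 GlycoHi had the highest mean, not separated from WT beyond the spread of the mice.

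**Figure D1:**
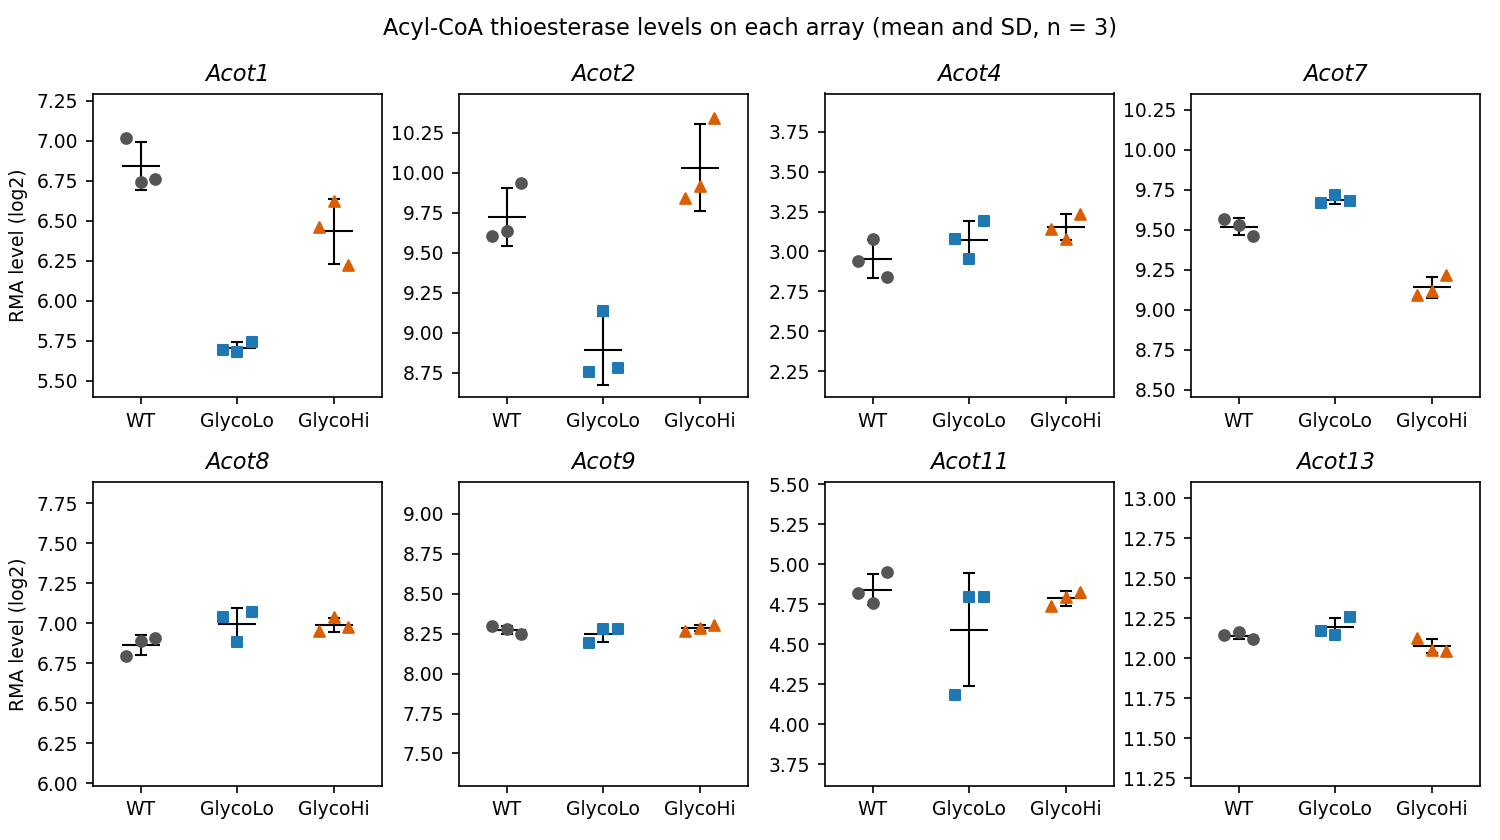
Log2 level of each of the 8 thioesterase genes (y axis, the same span of values in every panel) on each array by genotype (x axis); points are single mice, lines the mean and bars the SD (n = 3). Acot1 and Acot2 are lowest in the GlycoLo hearts and Acot7 in the GlycoHi hearts, while Acot9 spans 8.19 to 8.31 over all 9 mice.

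The shift of Acot2 against Acot1 is given here within each array, where a factor common to both probe sets cancels. Its group means follow from the differences above and add no support to them. Acot2 minus Acot1 was 2.59, 2.89 and 3.17 in WT, 3.06, 3.46 and 3.03 in GlycoLo and 3.38, 3.29 and 4.12 in GlycoHi. The mean was 0.30 above that of WT in GlycoLo, where the groups overlapped, and 0.72 above it in GlycoHi, where they did not. In a check added after seeing the data, the GlycoHi value was 0.46 without GlycoHi replicate 3, and the GlycoLo value was 0.15 without WT replicate 1 and 0.16 without GlycoLo replicate 2. The GlycoHi mouse with the highest Acot2 (replicate 3) had the lowest Acot1 of its group.

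A further probe set is annotated to both genes at once and is not counted among the 8. It read 7.81, 7.77 and 7.98 in WT, 6.75, 7.07 and 7.04 in GlycoLo and 7.61, 7.61 and 7.93 in GlycoHi. It was lowest in GlycoLo with no overlap, by -0.90 ± 0.11, while GlycoHi overlapped WT, at -0.14 ± 0.11. Its profile over the 9 arrays, taken as log2 minus the WT mean, lay at a root mean square distance of 0.30 from that of Acot1 and 0.28 from that of Acot2. How far the probe sets of Acot1 and Acot2 each also detect the other gene was not tested.

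Acot4, a peroxisomal type I enzyme that in the mouse acts on succinyl-CoA, read 2.94, 3.08 and 2.84 in WT, 3.08, 2.95 and 3.19 in GlycoLo and 3.14, 3.08 and 3.24 in GlycoHi. These values lie near the bottom of the scale, at percentile 14.5 of the WT arrays on average, and the groups overlapped (0.12 ± 0.09 and 0.20 ± 0.09 against WT). In GlycoHi against WT the overlap was only a tie, between WT replicate 2 and GlycoHi replicate 2. The next genes on chromosome 12, which are outside the 8, were called in none of the 3 comparisons. Acot3 and Acot5, both peroxisomal, differed from WT by -0.10 ± 0.11 and -0.03 ± 0.11 in GlycoLo and by 0.07 ± 0.11 and -0.06 ± 0.11 in GlycoHi. Acot5 is dimmer still than Acot4, with a WT mean of 2.65 at percentile 7.11, so little can be read from its differences. Acot6, also peroxisomal, had values of 5.94, 5.94 and 5.85 in GlycoHi, all above the WT range of 5.52 to 5.69, a difference of 0.29 ± 0.08 (adjusted p = 0.0948). Its difference in GlycoLo was -0.02 ± 0.08.

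**Figure D2:**
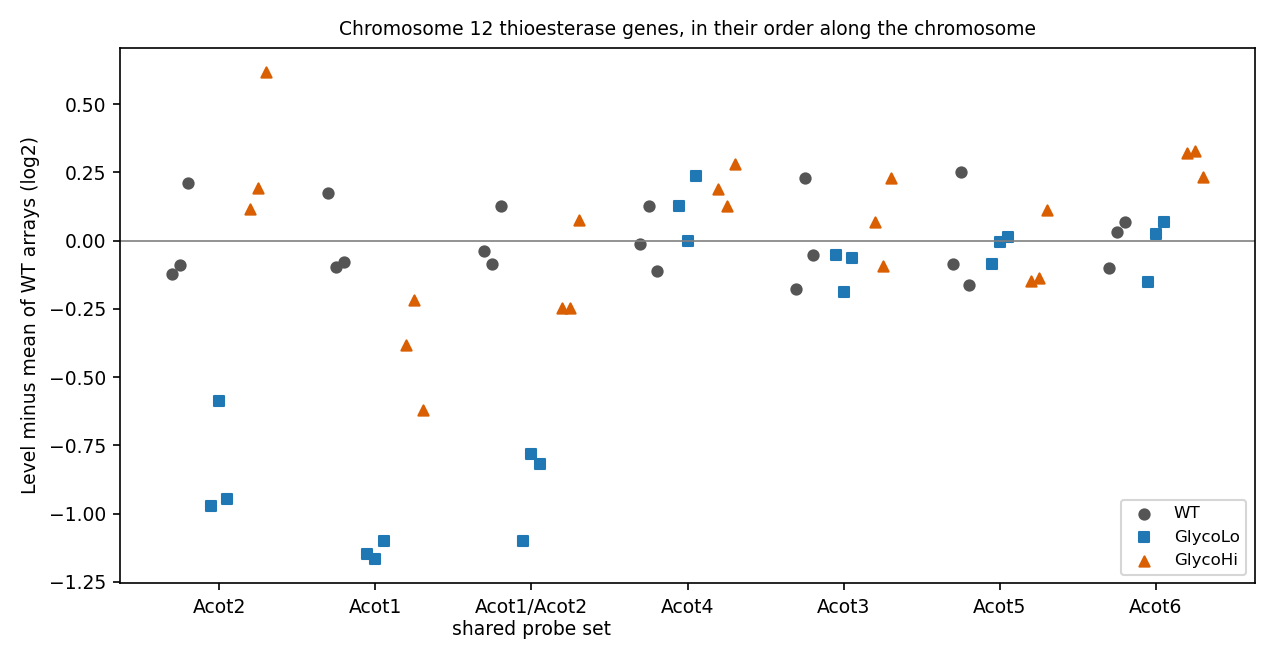
Log2 level minus the mean of the WT arrays (y axis) for the 6 thioesterase genes of chromosome 12 in their order along it, with the probe set shared by Acot1 and Acot2 beside them; each point is 1 mouse, with symbol and colour giving the genotype. The GlycoLo points of Acot2, Acot1 and their shared probe set lie below all WT points, and those of Acot4, Acot3, Acot5 and Acot6 lie among or near the WT points, as do the GlycoHi points of these 4 genes except Acot6, which lie above.

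Acot7, the cytosolic enzyme first described in brain, ran opposite to Acot1 and Acot2 in GlycoLo against WT and between the lines. Like Acot1, it was lower than WT in GlycoHi. Its log2 level was 9.57, 9.53 and 9.46 in WT, 9.67, 9.72 and 9.68 in GlycoLo and 9.09, 9.12 and 9.21 in GlycoHi. No groups overlapped, and the order was GlycoLo, WT, GlycoHi from high to low. The difference from WT was 0.17 ± 0.06 in GlycoLo (1.12-fold higher) and -0.38 ± 0.06 in GlycoHi (1.30-fold lower), and GlycoHi stood at -0.55 ± 0.06 against GlycoLo. The largest difference of Acot7 was smaller than those of Acot1 and Acot2, and so was its spread between mice of a group, an SD of 0.05 against 0.15 for Acot1 and 0.23 for Acot2 (the median over all probe sets was 0.109).

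Acot8, the peroxisomal type II enzyme of broad chain-length range, had slightly higher means in both lines and was not called. It read 6.79, 6.89 and 6.91 in WT, 7.04, 6.88 and 7.07 in GlycoLo and 6.95, 7.04 and 6.98 in GlycoHi. GlycoHi did not overlap WT (0.12 ± 0.07), GlycoLo did (0.13 ± 0.07), and the lines stood at -0.01 ± 0.07 from each other. Acot13, also known as Them2 and found at mitochondria, ranged from 12.12 to 12.16 in WT, 12.15 to 12.26 in GlycoLo and 12.04 to 12.13 in GlycoHi. It lies near the top of the scale, at percentile 99.3 of the WT arrays, where signal can be compressed. Its lines did not overlap, at -0.12 ± 0.06 for GlycoHi against GlycoLo.

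Acot9, a mitochondrial enzyme, had the smallest differences of the 8, at -0.02 ± 0.06 in GlycoLo and 0.01 ± 0.06 in GlycoHi against WT. A probe set annotated to both Acot9 and Acot10, its close relative, gave 0.01 ± 0.06 in each line. Acot11, the brown-fat-inducible enzyme that carries a lipid-binding START domain, read 4.82, 4.76 and 4.95 in WT, 4.18, 4.79 and 4.79 in GlycoLo and 4.74, 4.79 and 4.83 in GlycoHi. Its difference in GlycoLo, -0.25 ± 0.14, came from replicate 1, and without that mouse it was -0.05. Its values in GlycoLo replicates 2 and 3 and GlycoHi replicate 2 were equal. A tie between at least 1 pair of the 9 arrays occurred in 60.2% of all probe sets.

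The 8 genes were brought together with their levels in these 3 groups known, so their differences are a description and no p-value is given for any of them. In the limma fit of all 45037 probe sets, called at a Benjamini-Hochberg adjusted p under 0.05, 1 of the 8 was called in GlycoLo against WT (Acot1, lower), where 0.0844% of all probe sets were (0.0688% lower and 0.0155% higher). In GlycoHi against WT 1 of 8 was called (Acot7, lower), beside 2.08% of all probe sets (1.00% lower and 1.08% higher). In GlycoHi against GlycoLo 3 of 8 were called, Acot1 and Acot2 higher and Acot7 lower, beside 1.71% (0.957% higher and 0.755% lower). The call of Acot7 in GlycoHi was lost without WT replicate 2, GlycoHi replicate 1 or GlycoHi replicate 2, where its difference was -0.37, -0.35 and -0.37. The remaining calls held without each of the 9 arrays in turn. Groups that did not overlap were counted for 3 of 8 genes in GlycoLo against WT, Acot1 and Acot2 lower and Acot7 higher, beside 13.2% of all probe sets (6.29% lower and 6.90% higher). In GlycoHi against WT they were 3 of 8, Acot1 and Acot7 lower and Acot8 higher, beside 18.2% (8.49% lower and 9.68% higher). Between the lines they were 4 of 8, Acot1 and Acot2 higher and Acot7 and Acot13 lower in GlycoHi, beside 16.8% (8.76% higher and 8.01% lower). Nothing is read from these counts, since the same levels were known when the genes were proposed. The median difference over the 8 genes was 0.01, -0.02 and 0.06 in the 3 comparisons, beside 0.01, 0.00 and -0.00 over all probe sets. The comparisons with WT share the WT arrays, and each transgenic group enters a pair of comparisons.

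**Figure D3:**
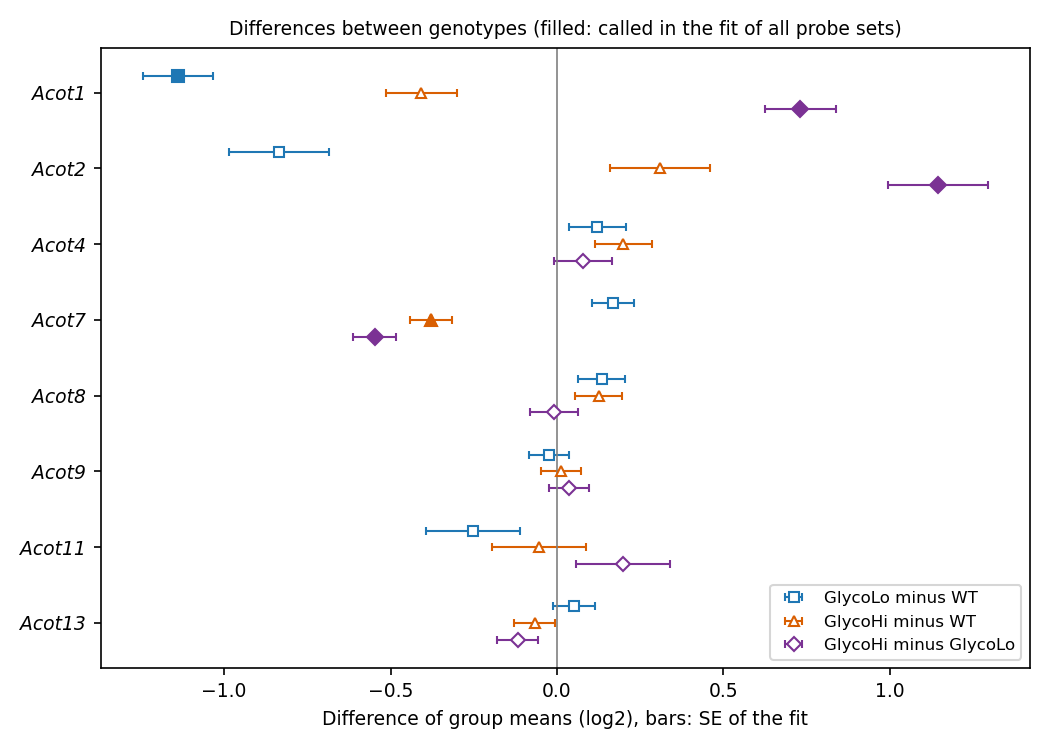
Difference of group means on the log2 scale (x axis) for each gene (y axis) in the 3 comparisons, with the SE of the fit as bars; filled symbols are calls in the fit of all probe sets. The filled symbols are those of Acot1 at -1.14 and 0.73, Acot2 at 1.14 and Acot7 at -0.38 and -0.55.

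The genes whose profile was most like those of Acot1 and Acot2 were ranked by the root mean square distance over the 9 arrays, each profile being log2 minus its WT mean. For Acot1 they were Fah of tyrosine breakdown (distance 0.21), Cidea of lipid droplets (0.28), Abhd1 (0.29), the interferon-induced Rsad2 (0.30) and Hamp, the hepcidin gene (0.31). Fah stood at -1.21 in GlycoLo and -0.62 in GlycoHi against WT. For Acot2 they were Shmt1, the cytosolic serine hydroxymethyltransferase (0.22), Decr1, which handles unsaturated fatty acids in mitochondria (0.28), 4930513N20Rik (0.28), Plbd1 (0.28) and Nudt12 (0.29). Shmt1 stood at -0.67 and 0.27. No gene appeared in both groups of 5. The profiles of Acot1 and Acot2 themselves lay 0.53 apart, so such short groups from the same arrays would seldom share a gene, and nothing is read from this.

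Genes around the thioesterases were read from 8 lists, of which 134 genes had a probe set. Cpt1b, Slc27a6, Acss3, Acsm4, Acot10, Fgf21 and Cyp4a10 were listed but had none with their symbol alone, so nothing is known of them here. In GlycoLo against WT 3 of the 134 fell and 0 rose, and the median difference was -0.10. In GlycoHi against WT 2 rose and 6 fell, with a median of -0.06. Between the lines 9 were higher and 4 lower in GlycoHi, with a median of 0.02. Without single arrays 0 of the 3, 4 of the 8 and 4 of the 13 calls held throughout. Over all probe sets 0.0844%, 2.08% and 1.71% were called in these 3 comparisons, so 0 calls in a short list say little about its genes. None of the 16 other thioesterases with a probe set was called in any comparison. The largest of their differences from WT were those of Lypla1, which removes palmitate from proteins, at -0.47 ± 0.14 in GlycoHi, and Fasn, fatty acid synthase, at 0.33 ± 0.20 in GlycoLo.

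Of 21 acyl-CoA synthetases, the enzymes that make acyl-CoA, 0 were called against WT in either line and 1 between the lines. Over all probe sets 0.0844%, 2.08% and 1.71% were called in the 3 comparisons, so these counts say little about the synthetases. Acsl1, the main long-chain form of heart, stood at -0.23 against WT in both lines. Acsl6 was lower in GlycoHi than in GlycoLo by 0.46 on the log2 scale (a difference of -0.46 ± 0.09, limma adjusted p = 0.0323), a call lost when any of 6 single arrays was left out, with an adjusted p as high as 0.131. Of 15 genes of coenzyme A supply and breakdown, Dcakd rose in GlycoHi by 0.36 ± 0.08 (adjusted p = 0.0473), which was lost whichever single array was left out, with an adjusted p as high as 0.155. Its difference from WT in GlycoLo was 0.45 ± 0.08 (adjusted p = 0.0858), and that between the lines was -0.09 ± 0.08. Pank1, a pantothenate kinase at the head of coenzyme A synthesis, stood at -0.43 in GlycoLo and was not called.

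In the lists of fatty acid transport and oxidation, the median difference from WT was below 0 in both lines. It was -0.14, -0.12 and -0.10 in GlycoLo and -0.04, -0.09 and -0.06 in GlycoHi for uptake and the carnitine shuttle, mitochondrial and peroxisomal oxidation. This was not particular to them: the synthetases stood at -0.06 and -0.12 and the other thioesterases at -0.02 and -0.10. Coenzyme A supply and breakdown stood at -0.09 and 0.07, and the PPAR and ERR list at 0.06 and -0.05. The median size of a difference from WT over all probe sets was 0.08 in each line. Of 15 genes of fatty acid uptake and the carnitine shuttle, Slc25a20, the carnitine-acylcarnitine carrier, was higher in GlycoHi than in GlycoLo by 0.51 ± 0.08 (limma adjusted p = 0.00841) and Cpt2 by 0.33 ± 0.07 (0.0427), and Acbd3 fell in GlycoHi against WT by 0.43 on that scale (adjusted p = 0.0159). Of 17 genes of mitochondrial oxidation, Decr1 was higher in GlycoHi by 0.67 ± 0.07 than in GlycoLo (adjusted p = 0.00102), where it stood at -0.58 ± 0.07 against WT, and Acad11 by 0.65 ± 0.12 (adjusted p = 0.0188). Of 20 peroxisomal genes, Pex11a, of peroxisome division, was higher in GlycoHi by 0.55 ± 0.11 and Cat, catalase, by 0.37 ± 0.08. Phyh, which starts phytanic acid breakdown, fell in GlycoHi against WT by 0.48 (adjusted p = 0.00288) and was lower than in GlycoLo, at -0.37 ± 0.06. The median difference of GlycoHi against GlycoLo was 0.20, 0.10 and 0.11 in the 3 lists of transport and oxidation, beside -0.00 over all probe sets. Slc25a20 and Decr1 between the lines and Phyh against WT held without each array. Cpt2, Acbd3, Acad11, Pex11a, Cat and Phyh between the lines lost their calls without 1 or more arrays (adjusted p up to 0.139, 0.0690, 0.0901, 0.133, 0.120 and 0.0680), as Decr1 did in GlycoLo whenever a WT or GlycoLo array was left out, with an adjusted p as high as 0.106.

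Among 14 genes of PPAR and ERR receptors and their partners 0 were called in GlycoLo, and Ppara itself stood at -0.23 there and -0.17 in GlycoHi. Esrrg, an orphan receptor of oxidative tissue, rose in GlycoHi by 0.39 ± 0.06 against WT (limma adjusted p = 0.00956). Lpin1, a phosphatidate phosphatase and coactivator, fell by 0.43 (adjusted p = 0.00549). Both also differed between the lines, by 0.38 ± 0.06 and -0.41 ± 0.06, the former lost without GlycoLo replicate 3 (adjusted p = 0.0503). The list of 16 other PPAR alpha targets had the lowest median in GlycoLo, -0.35, with Cidea (-0.74) and Ces1d (-0.70) called, both lost without several single arrays (adjusted p up to 0.114 and 0.179). Its median was -0.17 in GlycoHi, where Ces1d, Retsat and Lpl fell by 2.12, 0.63 and 0.32, the last and Retsat lost without single arrays (adjusted p up to 0.126 and 0.113). Between the lines Ucp2 was higher in GlycoHi by 0.62 ± 0.11 and Plin5, a coat protein of lipid droplets, by 0.54 ± 0.10, each lost without GlycoLo replicate 1 or 3 and Plin5 also without any GlycoHi array (adjusted p up to 0.0784 and 0.0947), and Ces1d was lower, at -1.43 ± 0.10.

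**Figure D4:**
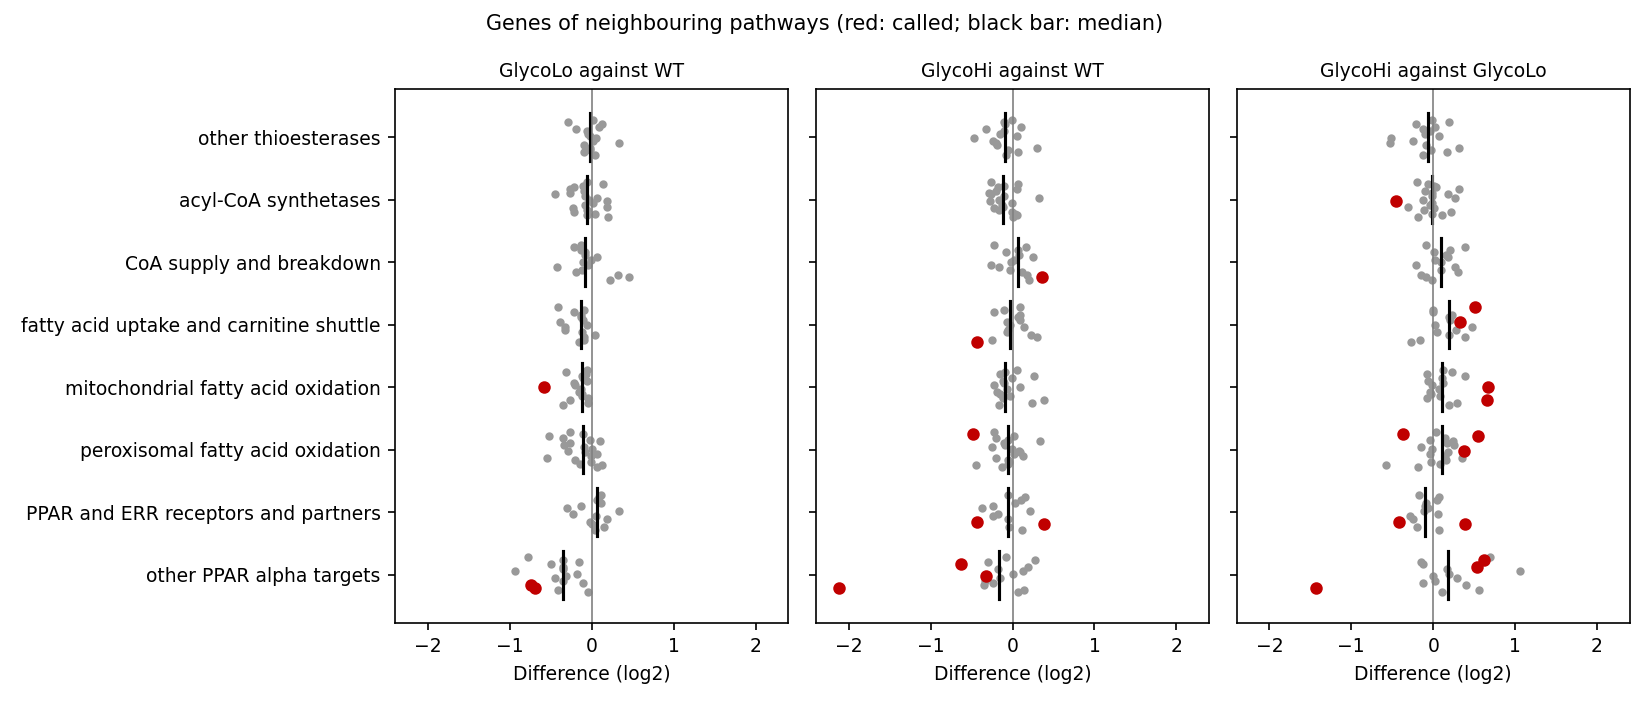
Log2 difference of each gene (x axis) in 8 lists around the thioesterases (y axis) for the 3 comparisons; each point is a gene, red points are calls and black bars list medians. The medians of the oxidation lists, among others, lie below 0 in GlycoLo against WT and above 0 in GlycoHi against GlycoLo.

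None of 6 white and none of 6 brown adipocyte markers was called in any comparison, while single markers varied widely between mice. Adipoq, an adipocyte hormone, read 5.63, 6.20 and 7.78 in WT, 6.32, 4.77 and 6.16 in GlycoLo and 5.62, 4.46 and 4.60 in GlycoHi, and Ucp1, the brown-fat uncoupling protein, 3.53, 5.29 and 6.27, then 4.21, 3.73 and 4.74, then 3.58, 3.57 and 3.39. In GlycoLo against WT, 4 of the 6 white markers had a lower and 2 a higher mean (median difference -0.18), among them Lep, the leptin gene, at 0.15 ± 0.07. Of the 6 brown markers 3 were lower and 3 higher (median -0.02), among them Elovl3 at 0.17 ± 0.13. In GlycoHi against WT, 5 of the 6 white and 6 of the 6 brown markers had a lower mean (median -0.23 and -0.13). The log2 of the summed white adipocyte level ranged from 9.05 to 9.91 in WT, 8.64 to 9.06 in GlycoLo and 8.62 to 8.85 in GlycoHi, and that of the brown adipocyte level from 6.35 to 7.24, 6.34 to 6.56 and 6.18 to 6.27. WT replicate 3 had the highest Adipoq and Ucp1, and without it the difference of GlycoLo from WT was -1.18 for Acot1 and -0.73 for Acot2. Among other cell types, 5 macrophage markers summed to 10.79 to 10.85 in WT, 10.55 to 10.60 in GlycoLo and 10.61 to 10.87 in GlycoHi, and 5 erythroid markers to 8.31 to 8.54, 7.60 to 8.25 and 7.78 to 8.26. For 7 markers of neurons, which are rich in Acot7, the sums were 8.03 to 8.08, 8.03 to 8.23 and 7.90 to 7.97. Of these 7 markers, 4 had a higher and 3 a lower mean in GlycoHi than in GlycoLo, with a median difference of 0.07. Dbh, of noradrenaline synthesis, was the 1 called, at -0.43 ± 0.08 between the lines (limma adjusted p = 0.0313), a call lost when any of 6 single arrays was left out, with an adjusted p as high as 0.113. The part of these cell types in the results on Acot1, Acot2 and Acot7 was not tested. Myh6, a cardiomyocyte marker, fell in GlycoHi by 0.70 against WT (limma adjusted p = 0.00444) and stood at -0.47 ± 0.10 against GlycoLo. Tnni2, of skeletal muscle, stood at -0.48 ± 0.09 between the lines. It is dim, with means of 3.55 in GlycoHi and 4.03 in GlycoLo, below the lowest array median of 4.76. Of the 7 skeletal muscle markers, 6 had a lower and 1 a higher mean in GlycoHi than in GlycoLo. The differences of Myh6 and Tnni2 between the lines lost their calls without single arrays (adjusted p up to 0.159 and 0.0796).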

How the data were processed

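Expression was measured in 9 mouse hearts, 3 of each genotype, on 1 array each. The authors deposited log2 values made by the robust multiarray average (RMA), per the submitters' processing notes, which also name limma and give no settings. The annotated table the authors deposited repeats these values to within 8.9e-16 and adds gene symbols, log2 differences and p-values, of which only the symbols were used. Of 45101 probe sets, 64 controls were left out. In 19760 rows the symbol was single; 24377 probe sets are unnamed here, so further probe sets of a gene may exist among them. All 8 symbols were current in the RefSeq table of GRCm38.p6. The array's build is not given in the sources used here.

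One linear model over all 9 arrays was fitted with limma 3.58.1 in R 4.3.3, with eBayes (residual degrees of freedom 6, prior 4.66) and Benjamini-Hochberg adjustment over 45037 probe sets. It was also run on simulated data with independent normal noise, which lack the ties of the real arrays, and nothing is read from that run here. The members and lists were chosen with earlier results of these data known. Named genes were the 8 members, called genes of the lists (at most 4 per list and comparison with the smallest p), the 5 nearest profiles for Acot1 and Acot2, called markers, Adipoq, Ucp1 and Pfkfb1; Acot3, Acot5, Acot6, Lypla1, Fasn, Acsl1, Pank1, Ppara, Lep, Elovl3 and the shared probe sets were chosen after their values were seen. Lists are described by counts and medians, with no set test. The p-values set each difference against the spread between mice within a group, moderated toward that of all probe sets. The number of arrays limits the precision. No endothelial, fibroblast, macrophage, hepatocyte or erythroid marker was called in any comparison. Plots used matplotlib 3.10.9.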

Additional observations from a re-analysis of the deposited data

Results flagged for a closer look

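Of the 8 genes, 3 drew attention because the limma fit called them in GlycoHi against GlycoLo. That comparison uses the same levels that were known when the genes were proposed, so it is no separate test. Acot1 was higher in GlycoHi by 0.731 on the log2 scale, both lines lying below WT. Acot2 was higher by 1.14, GlycoLo lying below WT and GlycoHi overlapping it. Acot7 stood at -0.548, and it was the gene of the 8 in which every GlycoLo mouse lay above and every GlycoHi mouse below all WT mice. These genes were chosen with their levels known, so the values describe these 9 hearts.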

How the results depend on the processing

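The differences of the 8 genes were recomputed 402 times over the alternatives, and 399 moved by less than the SD between replicates. Many of these could not move, so the count does not measure stability. The replicate block, the 6 arrays compared, the removal of dim probe sets and the trended and robust variance leave a difference of means unchanged. So does leaving out an array of the group not compared. The 3 that moved came from adding 50 to the linear values: Acot1 went to -0.69 in GlycoLo and 0.42 between the lines, and Acot4 to 0.03 in GlycoHi. No called difference changed sign. Without dim probe sets fewer were tested, and Acot4 and Acot11 were among those removed. Of the members left, 2 were called in GlycoLo (Acot2 added) and 2 in GlycoHi (Acot1 added). With a trended and robust variance 2 were called in GlycoHi (Acot1 added). The cause of the added calls was not tested. With 1 array left out, 1 member was called in GlycoLo each time, 0 to 1 in GlycoHi and 3 between the lines. Over all probe sets the 38 calls in GlycoLo became 17 with the replicate block, 15 with only the 6 arrays compared, 152 without dim probe sets, 134 with the offset and 256 with the trended and robust variance. The 938 calls in GlycoHi became 502, 1679, 1620 and 1875 under the last 4 of these, and the 771 between the lines 444, 1281, 1271 and 1547. With 1 array left out the counts were 13 to 37, 429 to 769 and 375 to 651. The replicate block left the members' calls at 1, 1 and 3. Same-numbered arrays deviated together with correlations of -0.0184 to 0.117, and 3 of 9 arrays, those of replicate 1, had their highest correlation with the same number in each other group, so the numbers were not taken as pairs. Signal near the bottom (Acot4, and Acot5 outside the 8) and top (Acot13) of the scale limits what can be read from those genes.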
